A study of Mus musculus with 2 samples.

Results

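The 43 genes described here encode the checkpoint kinases, the p53 axis and the repair machinery that respond to damaged DNA. They were taken by symbol from the 46095 rows of a mouse count table, and all 43 symbols were found. Of these genes, 41 averaged 5 CPM or more over the 2 libraries (CPM are counts scaled to a common library size, here with TMM factors) and are called measured below, as are all other genes at that level. The other 2, Xrcc5 and Lig4, lay below it. RNA was sequenced from mouse acute myeloid leukaemia cells that were sorted from bone marrow as Mac1-positive and c-Kit-positive and are labelled leukaemia-initiating. There was 1 library labelled P2X1-KO, from cells of genotype P2x1-KO, and 1 library labelled WT, from cells of wild-type genotype. Both came from C57BL/6 mice aged 8 weeks. The protocol text also uses the names P2X1-KD and P2X1-Scr, so that a knockdown and a scrambled control are worded beside the knockout. No source used here gives the oncogene that started the leukaemia, or says whether a library pools several animals.

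DNA damage signalling starts with kinases that sense lesions. ATM answers to broken ends and ATR to stalled replication forks, and they act through CHK2, CHK1 and p53 to hold the cell cycle, start repair or trigger cell death. Repair is then done by separate machines. Homologous recombination and end joining mend breaks across both strands, the Fanconi anaemia proteins open crosslinks, and the excision and mismatch pathways replace damaged or wrongly paired bases. In blood-forming cells these pathways are known for protecting stem cells, and inherited loss of Fanconi genes leads to bone marrow failure and leukaemia.

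With 1 library per group no difference below has a replicate check and no p-value was computed. Exact 95% intervals cover counting error only. The library labelled P2X1-KO held 9447894 counts and the library labelled WT 14658620 counts. P2rx1, the gene that encodes P2X1, had 45 counts in the library labelled P2X1-KO and 27 counts in the library labelled WT, a ratio of 2.93 (1.78 to 4.90). It thus went against the label, and each direction given here is one between the labelled libraries. The sorting markers were present, with Kit at 19.9 CPM in the library labelled P2X1-KO and 13.3 CPM in the library labelled WT, and Itgam, which encodes the Mac1 alpha chain, at 504 CPM and 307 CPM in the same order. Markers of more mature or other cells also differed. The summed level of 19 late neutrophil markers was 22489 CPM in the library labelled P2X1-KO and 5258 CPM in the library labelled WT, and that of 18 monocyte and macrophage markers was 5942 CPM and 1022 CPM in that order. The 13 eosinophil and mast cell markers summed to 254 CPM and 42.1 CPM in that order, the 12 stromal and endothelial markers to 297 CPM and 108 CPM, and 10 primary granule markers to 9145 CPM and 5084 CPM. Of the measured markers, 13 of 18 late neutrophil and 11 of 13 monocyte and macrophage genes passed 2-fold upward, and 0 and 1 downward. Over all measured genes the shares were 12.1% and 10.6%. Upward too were 4 of 5 eosinophil and mast cell, 4 of 5 stromal and endothelial and 4 of 10 primary granule genes, with 0 downward in each. In the smallest lists, 2 of 2 megakaryocyte and 1 of 1 B cell genes passed upward, 1 of 1 erythroid genes downward and 0 of 1 T and NK cell genes either way. For erythroid cells the sums over 12 markers were 62.8 CPM and 168 CPM, for B cells 50.7 CPM and 17.8 CPM over 12, for T and NK cells 13.8 CPM and 17.5 CPM over 13, and for megakaryocytes 40.3 CPM and 10.1 CPM over 9. Defining genes were at 0 counts in both libraries for B cells (Pax5, Ebf1), T cells (Cd4, Cd8a, Trac) and megakaryocytes (Pf4). Of the monocyte and macrophage markers, Cd163 and Mrc1 were at 0 in the library labelled P2X1-KO and Ms4a7 in the library labelled WT. None of the late neutrophil markers was at 0 in either library. The part of these markers in the repair genes' differences was not tested, and in bulk RNA fewer cells of a type and less RNA per cell cannot be told apart.

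Promoter letters were one feature that the choice of genes did not use. RefSeq promoter windows on GRCm38.p6, from 250 bases before to 50 after a start site, were found for 35 of the 43 genes and numbered 38. The letters TTTCCCGC, a form of the site bound by E2F factors, which drive genes of DNA synthesis, stood on either strand in 6 of the 38 windows (15.8%), against 2.08% of 9937 windows of measured genes and 1.07% of all 32851 windows. Each of the 6 sites is shown with its neighbours, 30 bases on the strand of its gene, 5′ to 3′, with the site or its complement in capitals.
Bard1, chr1:71103163-71103192, minus strand: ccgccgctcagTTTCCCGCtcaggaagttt
Brca2, chr5:150522442-150522471, plus strand: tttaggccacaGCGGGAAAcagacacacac
Chek2, chr5:110839820-110839849, plus strand: cgggattagccGCGGGAAAccaagacgtcg
Fancg, chr4:43010335-43010364, minus strand: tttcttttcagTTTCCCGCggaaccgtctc
Msh6, chr17:87975054-87975083, plus strand: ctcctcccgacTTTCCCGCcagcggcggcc
Xrcc6, chr15:82016312-82016341, plus strand: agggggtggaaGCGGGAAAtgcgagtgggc

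These 6 genes did not share a direction. CPM ratios of P2X1-KO over WT were 1.66 for Chek2, 1.15 for Bard1, 1.05 for Fancg, 0.914 for Xrcc6, 0.781 for Brca2 and 0.598 for Msh6. The other E2F form searched, TTTGGCGC, was in 0 of the 38 windows and in 1.12% of the windows of measured genes. The CCAAT box, searched as CCAAT on both strands, was in 22 of 38 windows (57.9%), against 37.9% of windows of measured genes. An ETS site searched as CCGGAAG was in 10 windows (26.3%), against 19.2%. The letters TTTGAA, the CHR element of genes used late in the cell cycle, were in 1 window (2.63%), against 12.2%. A half-site of p53 was in 4 windows (10.5%), against 6.89%, and a full p53 response element was in 0 of the 38 windows, against 0.03% of windows of measured genes. Such a match is a run of letters only, and its absence says nothing about a factor.

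Most of the 43 genes lay close together in the libraries. Of the 41 measured genes, 2 were higher by 2-fold or more in the library labelled P2X1-KO, as were 12.1% of all 10483 measured genes. Another 2 were lower by 2-fold or more, as were 10.6% of all genes. At 1.5-fold, 5 of the 41 were higher (12.2%), against 21.9% of all genes, and 11 were lower (26.8%), against 24.2% of all genes. The remaining 25 lay within 1.5-fold. At 4.88% in each direction the 2-fold shares were below those of all genes, and the share lower by 1.5-fold was near that of all genes. Of the 41, 30 had a ratio below 1 (73.2%), as had 54.2% of all genes. Their median log2 difference (log2 of CPM + 0.5, P2X1-KO minus WT) was -0.28, against -0.08 over all genes. Summed over the 43 genes, the level was 1802 CPM in the library labelled P2X1-KO and 2045 CPM in the library labelled WT.

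**Figure D1:**
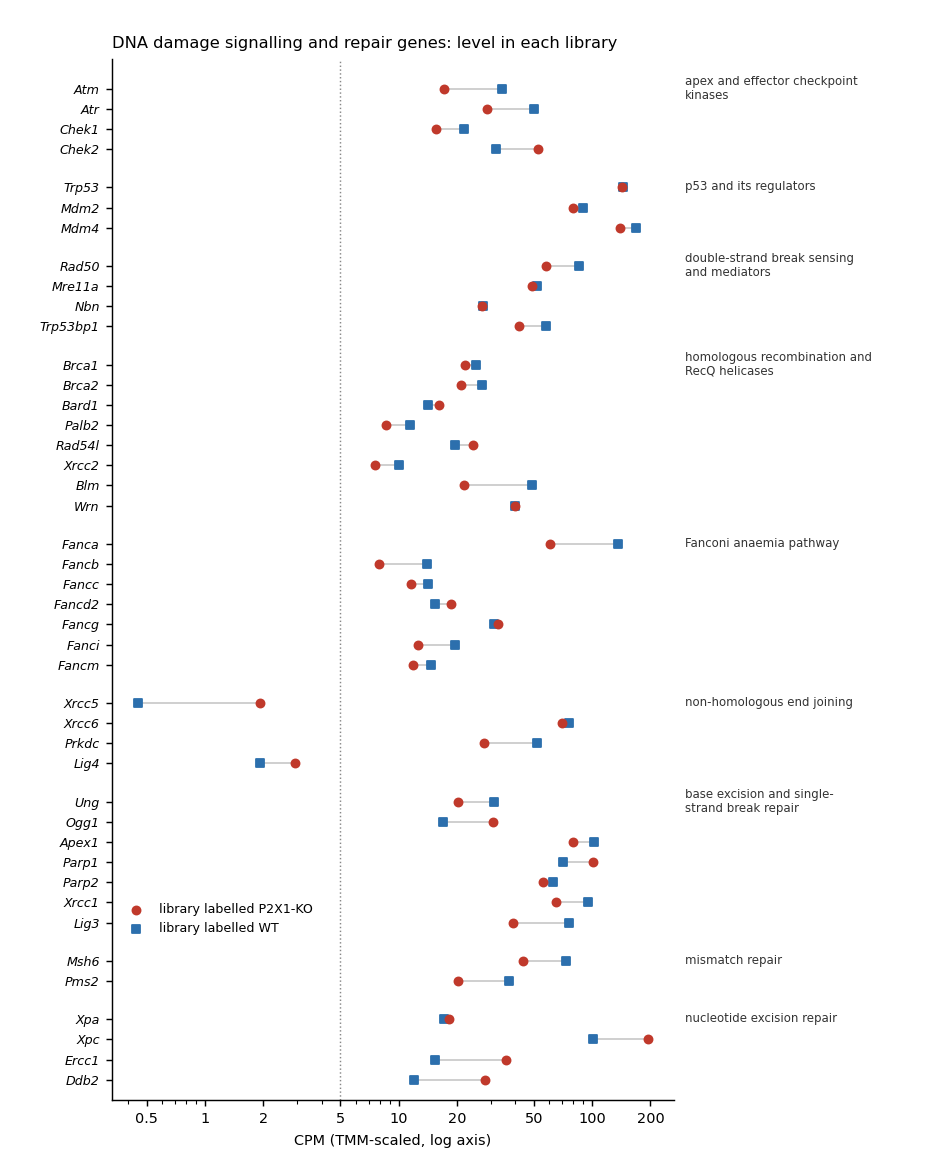
Level of each of the 43 genes in CPM (horizontal log axis) in the library labelled P2X1-KO (red circles) and the library labelled WT (blue squares), grouped by role, with 1 library per group and a dotted line at 5 CPM. Xrcc5 and Lig4 are the 2 genes left of the line, and Xpc, Mdm4 and Trp53 reach the highest CPM.

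Exon length, the number of bases in all annotated exons of a gene, moved with these differences. It can exceed the length of any 1 transcript. Over 10245 genes with a known exon length, those with more exon bases tended to be lower in the library labelled P2X1-KO. The Spearman correlation between log2 difference and exon length was -0.31 across genes, which share the same libraries. The repair genes are long. Their median exon length was 5659 bases, against 4358 bases over all genes, and the correlation across the 41 genes was -0.46. The 11 genes lower by 1.5-fold had a median exon length of 8117 bases and the 5 higher by 1.5-fold one of 3001 bases. In the range above 9000 bases the median log2 difference was -0.46 for 7 repair genes and -0.41 for all 1287 genes. In the range from 6000 to 9000 bases it was -0.34 for 10 repair genes and -0.30 for all 1914 genes, and from 3000 to 6000 bases -0.15 for 18 repair genes and -0.12 for all 3925 genes. Among genes of up to 3000 exon bases the values were further apart, at 0.03 for 6 repair genes and 0.28 for all 3119 genes. After each difference was set against genes of like length and GC content, the median of the 41 genes was 0.01, with 21 genes above 0 and 20 below. Of the 11 genes lower by 1.5-fold, Atm, Atr, Prkdc, Pms2, Fanci and Ung no longer passed that size after the correction. Apex1 then passed it downward and Rad54l, Fancd2 and Parp1 upward. Corrected values stand beside most of the repair genes named below.

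**Figure D2:**
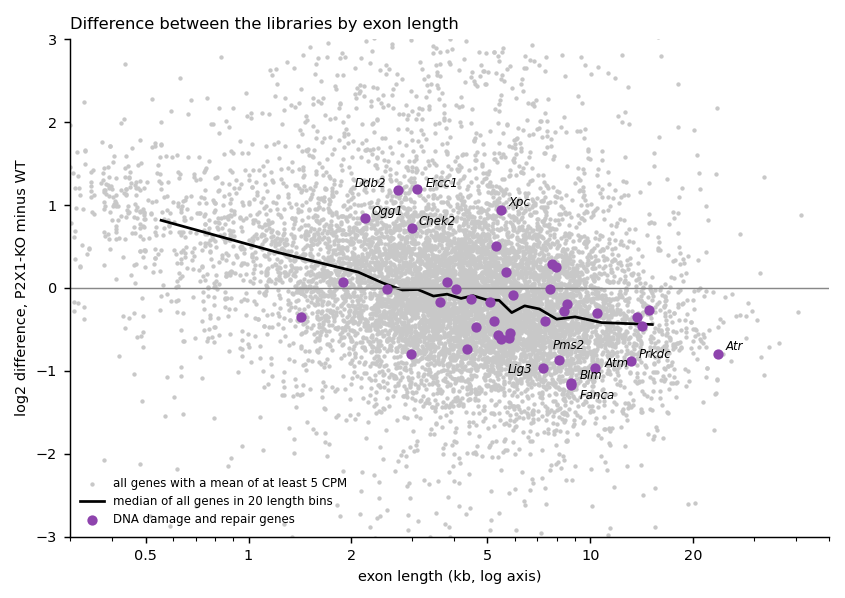
Log2 difference between the libraries (P2X1-KO minus WT, vertical axis) against exon length in kb (horizontal log axis) for all measured genes (grey), their median in 20 length bins (black line) and the 41 repair genes (purple). The axes leave out 322 of the 10245 grey genes; Ddb2, Ercc1, Xpc and Chek2 lie above the black line, and Fanca, Lig3 and Blm below it.

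Among the kinases that start and relay the signal, Atm, Atr and Chek1 were lower in the library labelled P2X1-KO and Chek2 was higher. Atm, on chr9:53439149-53536740, had 153 counts (17.2 CPM) in the library labelled P2X1-KO, against 534 counts (34.2 CPM) in the library labelled WT. This was 1.99-fold lower (1.66 to 2.40). Atr, the kinase gene for stalled forks, had 253 counts (28.5 CPM) in the library labelled P2X1-KO and 776 counts (49.8 CPM) in the library labelled WT, 1.75-fold lower (1.51 to 2.02). Both genes have a long exon length, at 10338 and 23629 annotated bases, and their ratios moved to 0.737 and 0.785 after the length and GC correction. Chek1, the effector gene of the ATR arm, had 139 counts (15.6 CPM) and 340 counts (21.8 CPM) in the same order, 1.39-fold lower (1.14 to 1.71), with a corrected log2 difference of -0.36. Chek2 encodes the effector kinase of ATM. It had 467 counts (52.6 CPM) in the library labelled P2X1-KO and 495 counts (31.7 CPM) in the library labelled WT, 1.66-fold higher (1.46 to 1.88), and its log2 difference of 0.72 was 0.77 after the correction. The kinases of the ATM and ATR arms therefore did not share a direction: the apex kinase genes were lower and 1 of the 2 effectors higher.

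Trp53 and its negative regulators were nearly level. Trp53, which encodes p53, had 1267 counts (143 CPM) in the library labelled P2X1-KO and 2238 counts (144 CPM) in the library labelled WT, a ratio of 0.994 (0.927 to 1.07). Mdm2, the ubiquitin ligase gene that limits p53 and is itself a p53 target, had 708 counts (79.7 CPM) in the library labelled P2X1-KO and 1400 counts (89.8 CPM) in the library labelled WT, 1.13-fold lower (1.03 to 1.23). Mdm4, whose product blocks p53 activity, had 140 CPM and 169 CPM in that order, 1.21-fold lower (1.13 to 1.29). After the length and GC correction the log2 differences of Trp53, Mdm2 and Mdm4 were 0.08, 0.01 and 0.22. By the mean level per kilobase of exon, Trp53 was the second most abundant of the 43 genes, at 35.3 CPM per kb in the library labelled P2X1-KO and 35.5 in the library labelled WT.

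Targets of p53 went both ways. Of 33 target genes that are not among the 43, 27 were measured. In the library labelled P2X1-KO 6 of these (22.2%) passed 1.5-fold upward and 6 (22.2%) downward, against 21.9% and 24.2% of all genes. Their median log2 difference was -0.11, close to the -0.08 of all genes. Cdkn1a, which encodes the cyclin-dependent kinase inhibitor p21, had 786 counts (88.5 CPM) in the library labelled P2X1-KO and 648 counts (41.6 CPM) in the library labelled WT, 2.13-fold higher (1.92 to 2.37). Epha2, an ephrin receptor gene, had 447 and 36 counts in that order, 21.8-fold higher (15.5 to 31.5). In the other direction, Zmat3, an RNA-binding protein gene, had 53 and 327 counts in the same order, 3.51-fold lower (2.62 to 4.79). Pmaip1, which encodes the cell death protein NOXA, had 652 and 2577 counts, 2.25-fold lower (2.07 to 2.46). Bax, a gene of mitochondrial cell death, was 1.10-fold higher, with a log2 difference of 0.14 that became -0.15 after correction, and Ccng1, a cyclin gene and a common readout of p53, was 1.29-fold lower. Of the 27 targets, 13 had a ratio above 1 and 14 (51.9%) one below 1, as had 54.2% of all genes.

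Genes that find and mark broken ends differed by less than 1.5-fold, with a median log2 difference of -0.27, or 0.03 after the length and GC correction. Rad50, Mre11a and Nbn encode the complex that holds broken ends and activates ATM. Rad50 had 57.5 CPM in the library labelled P2X1-KO and 85.6 CPM in the library labelled WT, 1.49-fold lower (1.34 to 1.65), with a corrected log2 difference of -0.41. Mre11a had 49.0 CPM and 51.9 CPM, and Nbn 26.9 CPM and 27.1 CPM, in the same order, and the intervals of their ratios held 1. The subunit genes of this complex therefore differed among themselves, with Rad50 further from 1 than its partners. Trp53bp1, whose product shields broken ends from resection, was 1.38-fold lower (1.22 to 1.56), and its log2 difference of -0.46 became 0.01 after the length and GC correction.

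Before the length and GC correction, 7 of 8 homologous recombination genes lay within 1.5-fold and Blm did not. Their median log2 difference was -0.27, or 0.21 after correction. On the corrected scale Blm did not stand apart, with a log2 difference of -0.68 beside 0.71 for Rad54l. Brca1 had 196 counts (22.1 CPM) in the library labelled P2X1-KO and 393 counts (25.2 CPM) in the library labelled WT, a ratio of 0.875 (0.734 to 1.04). Brca2, the partner of PALB2 in the same pathway, had 186 counts (20.9 CPM) and 418 counts (26.8 CPM) in that order, a ratio of 0.781 (0.654 to 0.931). Corrected for length and GC, those ratios were 1.14 and 1.16. Bard1, the partner of BRCA1, was 1.15-fold higher, Palb2, the bridge between BRCA1 and BRCA2, 1.34-fold lower, Rad54l, a motor of strand exchange, 1.23-fold higher (1.03 to 1.47), and Xrcc2 1.33-fold lower. Their corrected log2 differences were 0.50 for Bard1, -0.11 for Palb2, 0.71 for Rad54l and -0.20 for Xrcc2. Rad54l overlaps Lrrc41 on the opposite strand, which had a ratio of 0.750 (0.650 to 0.863). Blm, on chr7:80454733-80535119, encodes the helicase that dissolves crossed DNA strands. It had 194 counts (21.8 CPM) in the library labelled P2X1-KO and 763 counts (48.9 CPM) in the library labelled WT, 2.24-fold lower (1.91 to 2.64), and its ratio after correction was 0.616. Wrn, a helicase gene of the same RecQ family and of similar exon length, had 39.7 CPM and 40.0 CPM in the same order, and its log2 difference of -0.01 became 0.50 after correction.

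The Fanconi anaemia genes ranged from 2.26-fold lower to 1.20-fold higher, with a median log2 difference of -0.31, or 0.06 after correction. Fanca, on chr8:123268300-123318576, encodes a subunit of the core complex that marks crosslinked DNA. Its counts were 536 (60.3 CPM) in the library labelled P2X1-KO and 2126 (136 CPM) in the library labelled WT, 2.26-fold lower (2.05 to 2.49), with a ratio of 0.536 after correction. Fancb, another core subunit gene, had 70 counts (7.88 CPM) and 219 counts (14.05 CPM) in that order, 1.78-fold lower (1.36 to 2.37), with a corrected log2 difference of -0.76. Fanci, for one partner of the clamp that the core complex modifies, had 112 counts (12.6 CPM) and 304 counts (19.5 CPM) in the same order, 1.55-fold lower (1.24 to 1.94), whereas Fancd2, the other part of that clamp, had 165 and 241 counts, 1.20-fold higher (0.980 to 1.47). After correction Fanci had a ratio of 0.818, within 1.5-fold, and Fancd2 a log2 difference of 0.67. The core subunit gene Fancg had 32.8 CPM in the library labelled P2X1-KO and 31.2 CPM in the library labelled WT, and the ratios of Fancc and Fancm, a translocase gene, were 0.818 and 0.801 with intervals that held 1. Fanca overlaps Zfp276 on the opposite strand, and the strand setting of the counts is not given, so reads of such pairs cannot be told apart. Zfp276 had 521 counts in the library labelled P2X1-KO and 860 in the library labelled WT, a ratio of 1.06. Fanci overlaps Polg on the opposite strand, which was lower too, with a ratio of 0.498 (0.455 to 0.545).

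End joining genes showed a wide spread of levels. Xrcc6 and Xrcc5 encode Ku70 and Ku80, which bind broken ends as a pair. Xrcc6 had 619 counts (69.7 CPM) in the library labelled P2X1-KO and 1189 counts (76.3 CPM) in the library labelled WT, a ratio of 0.914 (0.828 to 1.01). Xrcc5, on chr1:72307421-72394952, had only 17 counts (1.91 CPM) in the library labelled P2X1-KO and 7 counts (0.449 CPM) in the library labelled WT, a ratio of 4.26 (1.68 to 12.2). Per kilobase of exon this was 0.749 and 0.176 CPM per kb for Xrcc5, against 15.6 and 17.0 CPM per kb for Xrcc6, in the same order of libraries. The partners of this pair therefore stood far apart in level in both libraries. By its mean over the libraries Xrcc5 was the lowest of the 43 genes per kilobase, while in the library labelled P2X1-KO Lig4 was lower, at 0.563 CPM per kb. No gene of the annotation used here overlaps the exons of Xrcc5, and a cause in counting or annotation was not tested. Prkdc, the catalytic kinase that Ku recruits, had 246 counts (27.7 CPM) in the library labelled P2X1-KO and 805 counts (51.6 CPM) in the library labelled WT, 1.86-fold lower (1.61 to 2.16), with a ratio of 0.750 after correction of its 13187 exon bases. Lig4, the ligase gene of the pathway, had 26 counts (2.93 CPM) and 30 counts (1.92 CPM) in that order, a ratio of 1.52 (0.864 to 2.66).

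**Figure D3:**
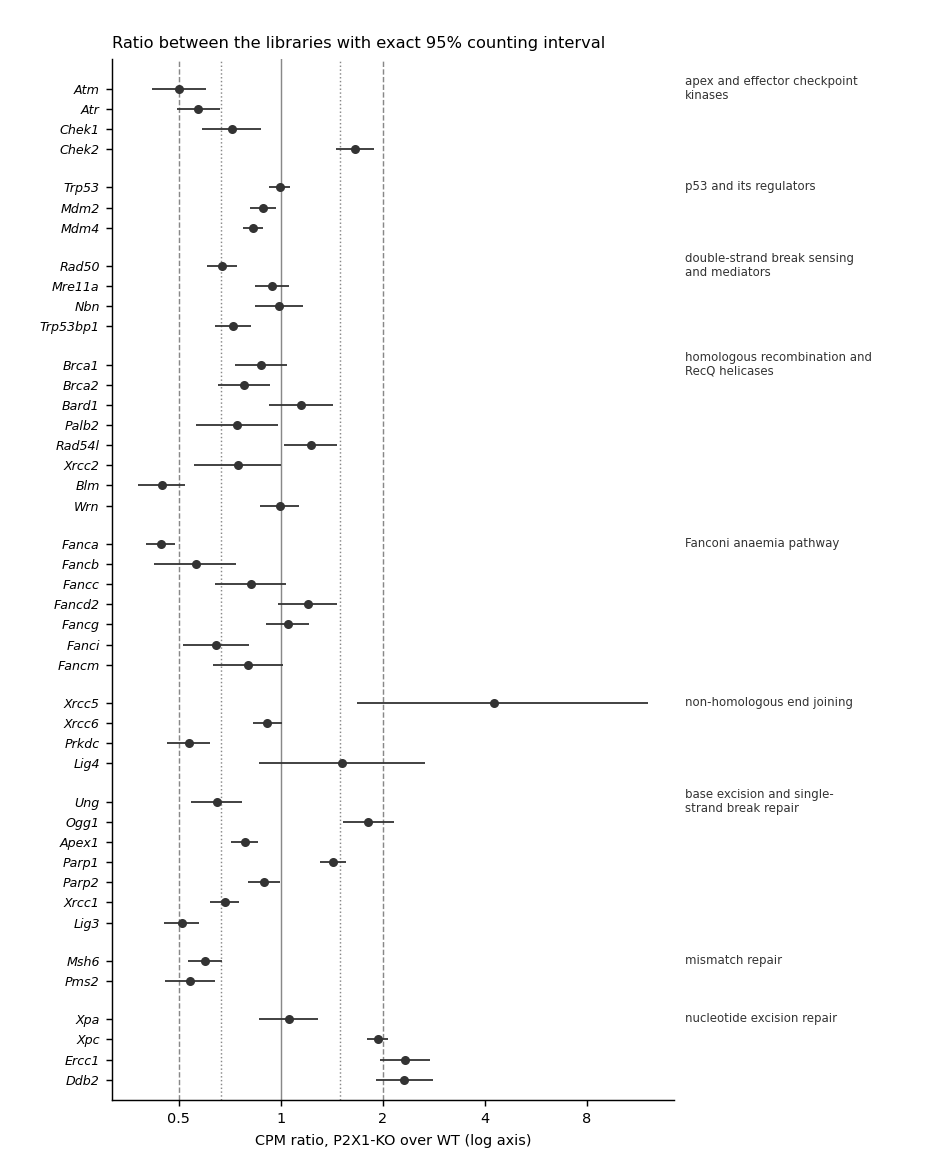
CPM ratio of P2X1-KO over WT (horizontal log axis) for each of the 43 genes, with bars for the exact 95% interval of counting error, a solid line at 1, dotted lines at 1.5-fold and dashed lines at 2-fold, with 1 library per group. The nucleotide excision genes Xpc, Ercc1 and Ddb2 lie near or beyond 2-fold higher and Blm and Fanca beyond 2-fold lower; the interval of Xrcc5, which rests on 17 and 7 counts, is the widest.

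Base excision and single-strand break genes differed in both directions. Ogg1, the glycosylase gene for oxidised guanine, had 272 counts (30.6 CPM) in the library labelled P2X1-KO and 263 counts (16.9 CPM) in the library labelled WT, 1.82-fold higher (1.53 to 2.16), with a corrected log2 difference of 0.58. It overlaps Camk1 on the opposite strand, which was 2.90-fold higher (2.62 to 3.22). Ung, the glycosylase gene for uracil, had 179 counts (20.2 CPM) and 485 counts (31.1 CPM) in the same order, 1.54-fold lower (1.30 to 1.84), and its corrected ratio of 0.737 lay within 1.5-fold. Parp1, which senses nicks and builds poly(ADP-ribose), had 893 counts (101 CPM) in the library labelled P2X1-KO and 1097 counts (70.4 CPM) in the library labelled WT, 1.43-fold higher (1.31 to 1.56), while its relative Parp2 had 55.7 CPM and 62.5 CPM. Their corrected log2 differences were 0.62 and -0.02. Xrcc1, the scaffold of the pathway, was 1.46-fold lower (1.33 to 1.61), with a corrected log2 difference of -0.29. Lig3, the ligase that XRCC1 carries, had 346 counts (39.0 CPM) in the library labelled P2X1-KO and 1190 counts (76.3 CPM) in the library labelled WT, 1.96-fold lower (1.74 to 2.21), and its corrected log2 difference was -0.79. It overlaps Rffl on the opposite strand, whose ratio was 0.678. Apex1, the endonuclease gene that cuts at lost bases, had the highest level per kilobase of the 43 genes, at 56.1 CPM per kb in the library labelled P2X1-KO and 71.6 in the library labelled WT, and was 1.28-fold lower (1.17 to 1.40). Its exon length is short, at 1422 bases, and its log2 difference of -0.35 became -0.81 after correction, past 1.5-fold. Apex1 overlaps Pip4p1 on the opposite strand, which had a ratio of 1.25 (1.08 to 1.45).

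Both mismatch repair genes were lower. Msh6, part of the clamp that finds mispaired bases, had 390 counts (43.9 CPM) in the library labelled P2X1-KO and 1144 counts (73.4 CPM) in the library labelled WT, 1.67-fold lower (1.49 to 1.88). Pms2, part of the endonuclease that follows it, had 179 counts (20.2 CPM) and 581 counts (37.3 CPM) in that order, 1.85-fold lower (1.56 to 2.20). After correction the log2 differences were -0.69 for Msh6 and -0.45 for Pms2, which no longer passed 1.5-fold. Msh6 overlaps Fbxo11 on the opposite strand, with a ratio of 0.642, and Pms2 overlaps Rsph10b on the same strand, which was not analysed here. The other 8 mismatch repair genes of the fixed list had a median of -0.37. Of the 8, 0 passed 1.5-fold upward and 1 (12.5%) downward, against 21.9% and 24.2% of all measured genes. Mlh3 was the 1 that passed, at 1.76-fold lower (1.39 to 2.25), with a corrected log2 difference of -0.30.

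Nucleotide excision was the role with the highest median, and 3 of its 4 genes were higher by 1.5-fold in the library labelled P2X1-KO, against 21.9% of all measured genes. Xpc, on chr6:91489305-91515888, encodes the first sensor of bulky lesions. It had 1734 counts (195 CPM) in the library labelled P2X1-KO and 1576 counts (101 CPM) in the library labelled WT, 1.93-fold higher (1.803 to 2.069). Ddb2, on chr2:91211572-91236982, encodes the sensor of ultraviolet lesions that hands them to XPC. It had 248 counts (27.9 CPM) in the library labelled P2X1-KO and 188 counts (12.1 CPM) in the library labelled WT, 2.32-fold higher (1.91 to 2.81). Ercc1, on chr7:19344778-19356524, encodes the partner of the nuclease XPF. It had 318 counts (35.8 CPM) in the library labelled P2X1-KO and 240 counts (15.4 CPM) in the library labelled WT, 2.33-fold higher (1.96 to 2.76). Xpa, the scaffold of the opened lesion, had 18.2 CPM and 17.3 CPM in that order, and the interval of its ratio held 1. The log2 differences after the length and GC correction were 1.03 for Xpc, 1.21 for Ddb2, 1.15 for Ercc1 and -0.13 for Xpa. Xpc overlaps no other gene, whereas Ddb2 overlaps Acp2 and Ercc1 overlaps Cd3eap on opposite strands. Acp2 had a ratio of 0.854 (0.744 to 0.980) and Cd3eap one of 0.991 (0.897 to 1.09), so neither of these was higher. Xpa overlaps Ncbp1 on the opposite strand, which had 648 and 1895 counts (P2X1-KO, then WT), a ratio of 0.600 (0.548 to 0.657). The part of overlapping reads in these ratios was not tested.

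The rest of the nucleotide excision pathway did not share that direction. Of 20 other genes of the pathway, all measured, 1 (5.0%) passed 1.5-fold upward and 7 (35.0%) downward, against 21.9% and 24.2% of all measured genes. The median log2 difference, without the length and GC correction, was -0.43. Gtf2h5, the smallest subunit of the unwinding factor TFIIH, had 783 and 832 counts (P2X1-KO, then WT), 1.65-fold higher (1.496 to 1.823). Gtf2h1, a larger subunit of TFIIH, had 627 and 2234 counts in that order, 2.03-fold lower (1.86 to 2.22). Uvssa, which acts at RNA polymerase stalled on a lesion, had 240 and 1058 counts in the same order, 2.51-fold lower (2.18 to 2.90). The listed genes Xpc, Ddb2 and Ercc1 were thus higher while 17 of these 20 (85.0%) had a ratio below 1, as had 54.2% of all measured genes.

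Other repair and checkpoint genes came from lists of the same pathways. Pooled, 129 of them were measured. In the library labelled P2X1-KO 14 (10.9%) passed 1.5-fold upward and 28 (21.7%) downward, against 21.9% and 24.2% of all measured genes, and the median log2 difference was -0.18. The downward share was thus near that of all genes. Among 28 checkpoint and signalling genes, 2 (7.14%) passed 1.5-fold upward and 8 (28.6%) downward. H2afx, the histone variant phosphorylated around breaks, had 1582 and 1169 counts (P2X1-KO, then WT), 2.38-fold higher (2.20 to 2.56), and Cdc25b, a phosphatase gene that drives entry into mitosis, was 1.61-fold higher. Rif1, which acts with 53BP1 at broken ends, had 168 and 814 counts in that order, 2.76-fold lower (2.34 to 3.28), and Usp7, the deubiquitinase gene that stabilises MDM2 and p53, was 2.18-fold lower (2.04 to 2.32).

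Of 26 other recombination genes, 5 (19.2%) passed 1.5-fold upward and 4 (15.4%) downward, against 21.9% and 24.2% of all measured genes. Shfm1, whose small product binds BRCA2, was 2.56-fold higher (2.46 to 2.67) and Rpa3, a subunit gene of the single-strand binding protein, 2.29-fold higher (1.93 to 2.73). Top3a, which encodes the topoisomerase partner of BLM, had 327 counts in the library labelled P2X1-KO and 1381 counts in the library labelled WT, 2.41-fold lower (2.13 to 2.72), so that Blm and Top3a were lower together. Among 16 other Fanconi genes 3 (18.8%) passed 1.5-fold upward and 3 (18.8%) downward. Fan1, the nuclease gene recruited by the FANCI and FANCD2 clamp, had 12 and 210 counts (P2X1-KO, then WT), 9.97-fold lower (5.59 to 19.6). Usp1, which removes ubiquitin from that clamp, was 1.99-fold lower (1.82 to 2.16), Faap20, a core complex partner, 1.65-fold higher, and the symbol Stra13, which has been used for several genes, 1.51-fold higher.

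Of 9 other end joining genes, 2 (22.2%) passed 1.5-fold upward and 1 (11.1%) downward, against 21.9% and 24.2% of all measured genes. Of 19 other base excision and single-strand break genes 2 (10.5%) were higher and 2 (10.5%) lower at that size. Nhej1, an end joining scaffold gene, was 1.78-fold higher and Polq, the polymerase gene of alternative end joining, 2.03-fold lower (1.61 to 2.57). Parp3 was 1.62-fold higher, whereas Hmgb1, a chromatin protein gene, was 2.08-fold lower and Tdg, a glycosylase gene, 1.64-fold lower. Among 11 translesion and direct reversal genes 0 passed 1.5-fold upward, and 3 (27.3%), near the share of all genes, passed it downward. These included Rev3l, the catalytic subunit gene of the translesion polymerase zeta, at 2.71-fold lower (2.26 to 3.27), and Rad18, the ligase gene that starts bypass, at 2.11-fold lower (1.69 to 2.67).

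Many repair genes peak with DNA synthesis, so genes of the cell cycle are given beside them. Of 30 DNA replication genes, 0 passed 1.5-fold upward and 3 downward, against 21.9% and 24.2% of all measured genes, and the median log2 difference was -0.04. Cdt1, a licensing factor gene, was 1.70-fold lower and Pole, a polymerase gene, 1.59-fold lower. Of 24 mitosis genes, 6 (25.0%) passed 1.5-fold upward, near the share of all genes, and 0 downward, against 24.2% of all genes. In this list 20 genes had a ratio above 1 and 4 (16.7%) one below 1, against 54.2% of all genes below 1. The median was 0.37, and Nusap1 was 1.99-fold and Ube2c 1.89-fold higher. Among the genes named from these and the other lists, Faap20, Nhej1, Tdg, Mlh3 and Pole no longer passed 1.5-fold after the length and GC correction, and Stra13 had no exon length to correct by. The part of these lists in the differences of the repair genes was not tested.

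**Figure D4:**
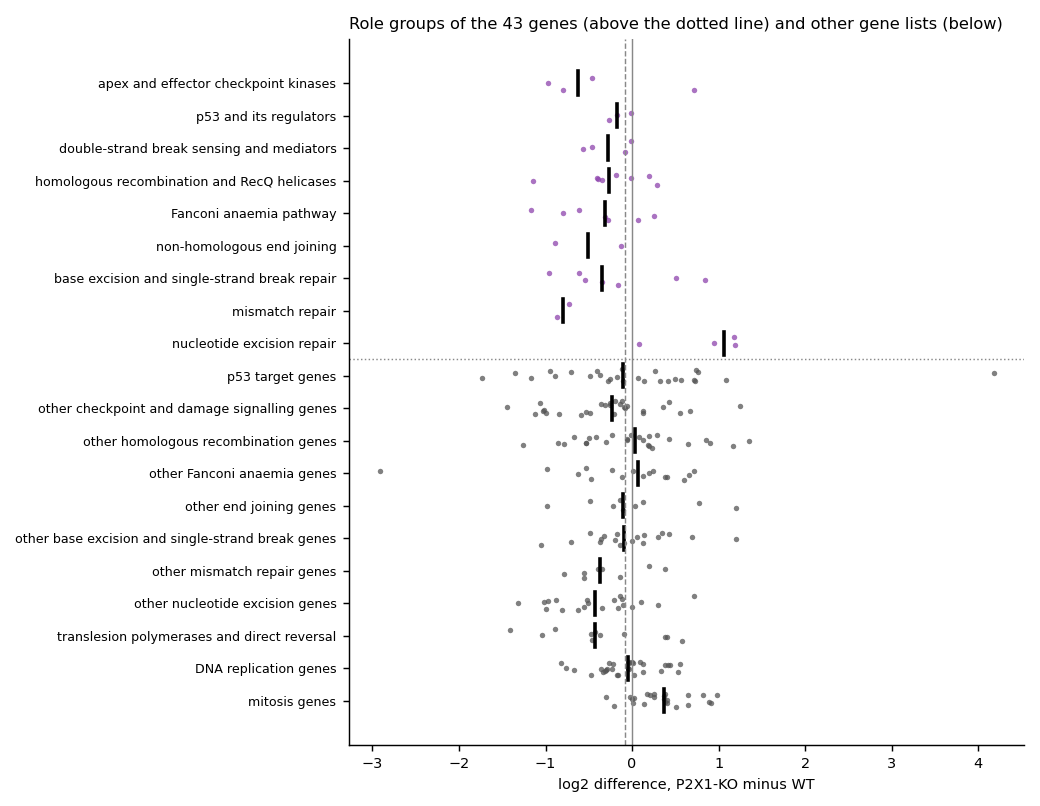
Log2 difference between the libraries (P2X1-KO minus WT, horizontal axis) for measured genes, as 1 point a gene with a black bar at the median, for the 9 role groups of the 43 genes (purple, above the dotted line) and for other gene lists (grey, below it). The dashed line marks the median of the 10245 measured genes with a known exon length. The median of all measured genes was -0.08. Nucleotide excision is the role group with the highest median, 1.06, and mismatch repair has the lowest, -0.80.

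Head-to-head arrangement was a further shared feature. In 16 of the 43 genes (37.2%) the start site lay at most 1000 bases from that of a protein-coding neighbour on the opposite strand, pointing away from it. Among the 41 measured genes the share was 36.6%, against 11.5% of 9617 protein-coding genes at that level. In 12 pairs both genes were measured, and in 6 of these the ratios lay on the same side of 1. Among the 41 measured repair genes 73.2% had a ratio below 1, as had 54.2% of all measured genes. The same-side share over all such pairs was not computed, so no shared direction is read from these 6. Shared control within a pair was not tested. Atm and Npat, a regulator of histone genes, start 307 bases apart and were nearly alike. Npat had 158 counts (17.8 CPM) in the library labelled P2X1-KO and 555 counts (35.6 CPM) in the library labelled WT, 2.001-fold lower, beside 1.99-fold for Atm. Chek2 and Hscb, a gene of iron-sulphur cluster assembly, start 202 bases apart. Hscb had 276 counts in the library labelled P2X1-KO and 206 counts in the library labelled WT, 2.35-fold higher (1.96 to 2.83), beside 1.66-fold for Chek2. Xpc and Lsm3, an RNA-processing gene 40 bases away, were higher together too, and Lsm3 had a ratio of 1.47 (1.32 to 1.63).

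In other pairs the genes were less alike. Fancb was 1.78-fold lower and its neighbour Mospd2 1.66-fold higher (1.34 to 2.05). Apex1 had a ratio of 0.783 and Osgep one of 1.36 (1.20 to 1.53). Prkdc and Mcm4, a replication helicase gene, were both below 1 but apart in size, with ratios of 0.536 (0.463 to 0.619) and 0.813 (0.748 to 0.883). Pms2 had a ratio of 0.541 and Aimp2 one of 1.07 (0.953 to 1.20). Parts of the stretches between the starts of the pairs led by a checkpoint kinase gene are shown because both genes of each pair lay on the same side of 1. They are RefSeq sequence of GRCm38.p6 on the strand of the kinase gene, 5′ to 3′, ending before its annotated starts, with a CCAAT box on either strand in capitals.
Atm, chr9:53536741-53536821, minus strand: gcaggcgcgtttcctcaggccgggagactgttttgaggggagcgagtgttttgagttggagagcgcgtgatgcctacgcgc
Chek2, chr5:110839833-110839978, plus strand: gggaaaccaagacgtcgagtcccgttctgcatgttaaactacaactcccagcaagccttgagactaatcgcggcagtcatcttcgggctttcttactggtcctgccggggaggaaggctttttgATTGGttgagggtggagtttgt

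The 81 bases printed before Atm held none of the letters searched, although its whole promoter window held a CCAAT box and the ETS letters, and that before Chek2 held 1 CCAAT box as its complement. The Chek2 stretch starts inside the E2F letters shown earlier.

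**Figure D5:**
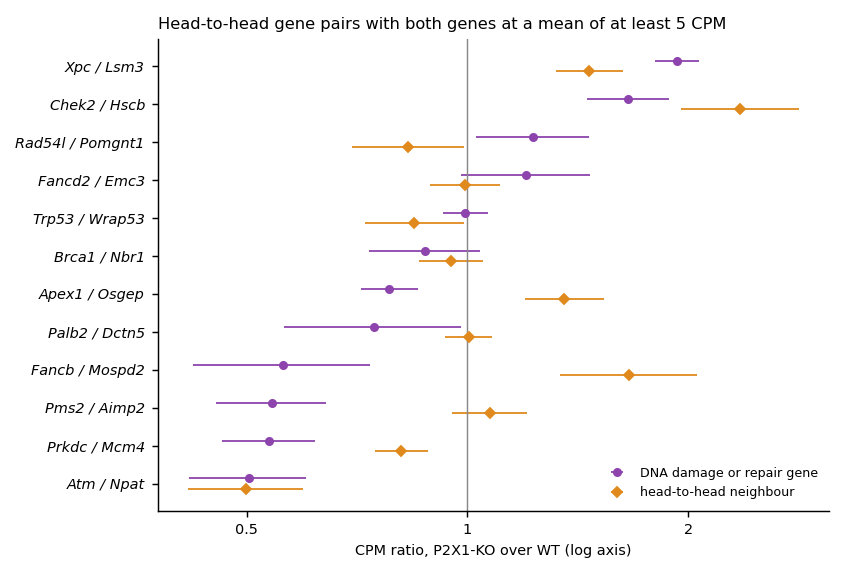
CPM ratio of P2X1-KO over WT (horizontal log axis) with exact 95% counting intervals for 12 head-to-head pairs, the repair gene as a purple circle and its neighbour as an orange diamond, ordered by the repair gene's ratio, with 1 library per group. Atm and Npat lie together near 0.5, Chek2 with Hscb and Xpc with Lsm3 lie above 1, and Fancb and Mospd2 lie on opposite sides of 1.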

How the data were processed

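The table deposited by the authors holds raw read counts, as whole numbers, under gene symbols. The submitters' processing notes name HISAT2 2.0.4 and mm10. The counting tool, annotation and strand setting were not given in the sources used here. Both columns were matched to the labels by title.

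Counts were scaled with TMM (edgeR 4.0.16, R 4.3.3) to effective library sizes of 8882591 for P2X1-KO and 15591519 for WT. CPM ratios have exact binomial (Clopper-Pearson) 95% intervals, which cover counting error only. The WT library is deeper, but the counting error of a gene follows its own count in each library. Xpc, for one, had 1734 counts in P2X1-KO and 1576 in WT. No test was run, since each group has 1 library. The code was tested on simulated data.

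The 43 genes, their roles and the other lists were chosen with earlier results of these data known. Values were written out for genes at least 1.5-fold apart, genes under 5 CPM and 9 central genes, and from each list for up to 2 genes per direction. Levels per kilobase use all annotated exon bases, so they understate genes with long rare exons. Exon lengths, positions and overlaps came from GENCODE M21 on GRCm38, the assembly of mm10. The length and GC correction subtracted medians within 20 bins of each. Alternatives were other scalings, the CPM minimum, a pseudocount of 2 CPM in place of 0.5, that correction, and leaving out overlapping genes. Some genes picked by this rule are not reported here.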

Additional observations from a re-analysis of the deposited data

How the results depend on the processing

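Scaling moved the counts of lower genes. With total counts, 7 of the genes passed 2-fold downward, as did 15.3% of all genes, and 17 passed 1.5-fold downward, as did 33.3%. The median log2 difference of the repair genes was then -0.45. With totals that leave out the 20 most abundant genes these were 8, 17 and -0.47, beside 15.9% and 34.2% of all genes. The median over all genes moved by a like amount, to -0.26 and -0.28, so the repair genes stayed -0.19 from it under each, beside -0.20 with TMM.

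The length and GC correction left 0 genes past 2-fold downward, against 7.99% of all genes. It left 8 past 1.5-fold upward, against 21.5%, and 6 past 1.5-fold downward, against 18.9%, and turned the median to 0.0074. It also turned the medians of 4 role groups, to 0.0759 for p53 and its regulators, 0.0309 for break sensing, 0.21 for homologous recombination and 0.0568 for the Fanconi pathway. Without genes that overlap another gene, 20 of the measured repair genes remained. Of these, 0 passed 2-fold upward, against 12.8% of all genes in that setting, and 1, Blm, downward, against 10.7%. Ercc1, Ddb2 and Fanca, the other genes past 2-fold, each overlap another gene and were left out. Upper-quartile and median-of-ratios scaling, the CPM minimum of 1, and no minimum kept each count within 1.5 times, and these and the pseudocount of 2 CPM kept the direction of the median. No paired analysis was possible because each group has 1 library.

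Low counts limit the precision of Xrcc5 and Lig4, and no depth replaces a second library per group.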
